A study of Mus musculus with 8 samples.

Results

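The cells described here are the nuclei of mouse striatum that the authors annotated as fibroblasts. They were taken as every nucleus whose deposited cluster name, once its leading number was removed, read Fibroblast. The cluster held 132 of 55672 annotated nuclei (0.237%) and was the 16th largest of 18 clusters. The study co-profiled nuclear RNA and open chromatin in striatum of 12-week-old mice with the 10x Multiome assay, which reads both from the same nucleus. It used 8 inbred strains without any treatment: the wild-derived CAST/EiJ, WSB/EiJ and PWK/PhJ, and the classical NZO/HlLtJ, C57BL/6, 129S1/SvImJ, NOD/ShiLtJ and A/J. There were 32 mice in 4 batches, and each batch pooled the nuclei of 1 mouse per strain before loading, so that a mouse is a batch and a strain. The study's text names the C57BL/6 substrain as C57BL/6J and its table of nuclei as C57BL/6NJ, so only C57BL/6 is written here, and the sex of a single mouse was not used.

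Brain fibroblasts lie in the meninges and in the sheath around larger vessels, not in the neural tissue itself. They build the collagen and proteoglycan matrix of the pia, arachnoid and dura, lay down basement membrane, and make signals such as retinoic acid and insulin-like growth factor. Layers of the meninges differ in their genes: Lama1 and Slc6a13 are known from pial fibroblasts, Aldh1a2 from the arachnoid and Slc47a1 from the inner dura and arachnoid border.

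The fibroblast nuclei gave 253830 counts (UMIs, molecules counted once each) in all, with a median of 1644 per nucleus (473 to 12355), and the median over all annotated nuclei was 4329. A median of 1083.5 genes was detected per nucleus, and 3.45% of the counts of the median nucleus were mitochondrial. The 4 batches held 36, 40, 23 and 33 fibroblast nuclei. The authors' table calls each of the 132 a single nucleus by DoubletFinder and by the strain-specific reads of RNA and of open chromatin. Strain reads cannot show doublets of nuclei from 1 mouse. All 132 nuclei were given the same strain from their RNA and from their open chromatin. Of their barcode sequences, 9 also occurred in another batch, 6 of them as annotated nuclei of other clusters, and none was shared between fibroblast nuclei. In the deposited index of open-chromatin nuclei, 76 of the 132 were listed (57.6%), beside 51.0% of mural cells and 54.8% of endothelium. By batch the share ran from 32.5% in batch 2 to 100% in batch 4, against 83.9% to 96.6% of all annotated nuclei.

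Levels are given in CPM, the summed counts of a cluster scaled to a total of 1000000, with exact 95% Poisson intervals that cover counting error only. The clusters were made from these same genes, so levels against other clusters are descriptions without a test. The 4 genes known to mark these cells were all highest in the cluster. Decorin (Dcn), a small proteoglycan that binds collagen fibrils, stood at 1146 CPM (1018 to 1286), 25.02 times the next cluster, endothelium. With batch 2, where fibroblast Dcn was lowest, left out of every cluster, the ratio was 66.8. The levels of the other clusters moved with this too. Col1a2, a chain of type I collagen, stood at 465 CPM (385 to 557), 12.2 times mural cells. Lumican (Lum), another collagen-binding proteoglycan, stood at 181 CPM (133 to 242), 31.8 times the next cluster, and the transcriptional regulator Eya1 at 335 CPM (267 to 414), 3.51 times astrocytes. At least 1 UMI of these 4 genes was found in 117 of the 132 nuclei, and UMIs of at least 2 of them in 80. A Dcn UMI was found in 65.9% of fibroblast nuclei, against 4.36% of mural nuclei (median 1477 UMIs) and 3.64% of endothelial nuclei (median 3821 UMIs). The defining markers of the label were thus present, though unevenly among the nuclei, as given below.

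Defining markers of the other vascular cells were low. The mural markers Rgs5, Kcnj8, Abcc9 and Notch3 gave 4, 2, 2 and 5 counts, and the endothelial genes Flt1, Cldn5, Pecam1, Mecom and Ptprb gave 9, 3, 2, 1 and 0. Pdgfrb and Vtn, which are also listed as mural markers, were shared: Pdgfrb stood at 327 CPM against 662 in mural cells, and Vtn at 1312 against 2692. The 5 endothelial genes summed to 29.7 to 90.0 CPM over the batches, against 6333 in endothelium. Of the 4 genes of border macrophages, Mrc1, F13a1 and Lyve1 were at 0 and 1 count of Cd163 was found. All 3 ependymal genes were at 0, and Csf1r of microglia was also at 0. Transcripts of abundant neighbours were present: Mbp, a myelin gene, was found in 89.4% of fibroblast nuclei at 2714 CPM (7461 in oligodendrocytes), and in 95.4% of mural and 95.3% of endothelial nuclei. Pde10a, a gene of striatal projection neurons, stood at 449 CPM, against 3317 in Drd2+ neurons. Drd2 itself was at 0. The 4 oligodendrocyte genes summed to 2165 to 4601 CPM over the batches, and the part of such RNA in the levels below was not tested.

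Promoters of 3 genes are shown because these genes carry the cluster's identity or its division. Aldh1a2 had the largest ratio to any other cluster among the 960 genes ranked below, Col1a2 is one of the 4 defining genes, and Cemip had no UMI in one set of the nuclei. Each run is the 250 bases before the annotated start in RefSeq's GRCm38.p6 annotation, on the gene's strand, and capitals mark matches on either strand. The motifs searched were the TATA box (letters TATAAA), the GC box (letters GGGCGG) and the CCAAT box (these letters alone), and none overlaps another here.
Aldh1a2 (chr9:71215539-71215788, plus strand): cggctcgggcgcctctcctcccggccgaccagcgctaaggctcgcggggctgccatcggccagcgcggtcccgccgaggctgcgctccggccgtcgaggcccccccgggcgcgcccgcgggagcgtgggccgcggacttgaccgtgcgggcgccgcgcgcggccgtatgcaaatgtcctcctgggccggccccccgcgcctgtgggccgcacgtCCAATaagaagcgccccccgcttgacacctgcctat
Col1a2 (chr6:4505368-4505617, plus strand): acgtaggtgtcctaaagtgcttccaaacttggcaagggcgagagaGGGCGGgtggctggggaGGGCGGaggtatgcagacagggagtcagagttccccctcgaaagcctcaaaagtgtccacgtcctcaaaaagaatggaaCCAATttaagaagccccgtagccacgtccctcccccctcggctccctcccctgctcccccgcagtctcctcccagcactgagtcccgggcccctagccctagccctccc
Cemip (chr7:84086506-84086755, minus strand): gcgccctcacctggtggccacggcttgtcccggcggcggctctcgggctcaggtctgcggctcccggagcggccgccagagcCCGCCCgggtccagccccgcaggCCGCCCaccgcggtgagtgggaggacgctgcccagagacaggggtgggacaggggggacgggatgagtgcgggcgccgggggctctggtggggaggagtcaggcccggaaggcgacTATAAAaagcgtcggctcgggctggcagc
The Aldh1a2 window held 1 CCAAT box, the Col1a2 window 2 GC boxes and 1 CCAAT box, and the Cemip window 1 TATA box and 2 GC boxes on the other strand. Over all 32851 windows of this length, 12.4% held a TATA box, 32.7% a GC box and 33.9% a CCAAT box on either strand. The deposited list of open regions, called over all nuclei and given in mm10 coordinates, overlapped the whole Aldh1a2 window and 217 bases of the Col1a2 window. It met only the last 2 coordinates of the Cemip window nearest the start. Of the 25 genes named first below, 20 had an entry, with 25 windows in all, and 15 of these 25 overlapped an open region, beside 51.7% of all windows. Dcn, Lum, Eya1, Lama1 and Slc47a1 had no entry in the promoter table.

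The 25 genes with the largest ratio of fibroblasts to the highest other cluster, among the 960 with at least 50 counts and a UMI in at least 10% of the nuclei, were led by Aldh1a2, a retinaldehyde dehydrogenase that makes retinoic acid. Its 51 counts gave 201 CPM (150 to 264), 65.1 times endothelium, the next cluster. By batch it stood at 148, 191, 208 and 266 CPM. Slc6a13, a transporter of GABA and taurine, stood at 504 CPM, 33.2 times mural cells, with 520, 394, 741 and 517 CPM by batch. The metalloproteinase Adamts12 stood at 315 CPM (27.7 times, but 10.2 times without batch 1), the aldehyde oxidase Aox3 at 500 (25.8 times) and Cemip, which takes part in the breakdown of hyaluronan, at 1501 (15.7 times). The laminin chain Lama1 stood at 1552 CPM (1403 to 1713), 15.8 times the next cluster. Osteopontin (Spp1), a secreted matrix phosphoprotein, stood at 366 CPM (15.6 times), and Cped1, found in 90.2% of the nuclei (35.4% of mural and 9.17% of endothelial nuclei), at 2348 (13.5 times). The others of the 25 were Col3a1, Bnc2, Col1a1, Col4a6, 4930594M22Rik, Gm29683, Nupr1, Col12a1, Enpp1, Ranbp3l, Ogn, Tbx15, Adamtsl3, Col13a1, Gm30624, Dcn and Col1a2, with ratios of 8.39 to 25.02. With any single batch left out, each of the 25 was at least 4.09 times the next cluster. The ratio then moved by over 1.5 times in 8 of them: to 98.3 for Aldh1a2, 35.4 for Bnc2, 15.1 for Adamtsl3, 23.8 for Col13a1 and 6.97 for Ranbp3l without batch 2, to 11.2 for Bnc2, 4.09 for Col13a1 and 8.29 for Gm29683 without batch 1, to 21.4 for Gm29683 and 5.14 for Col13a1 without batch 4, and for Dcn and Adamts12 as given above.

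**Figure D1:**
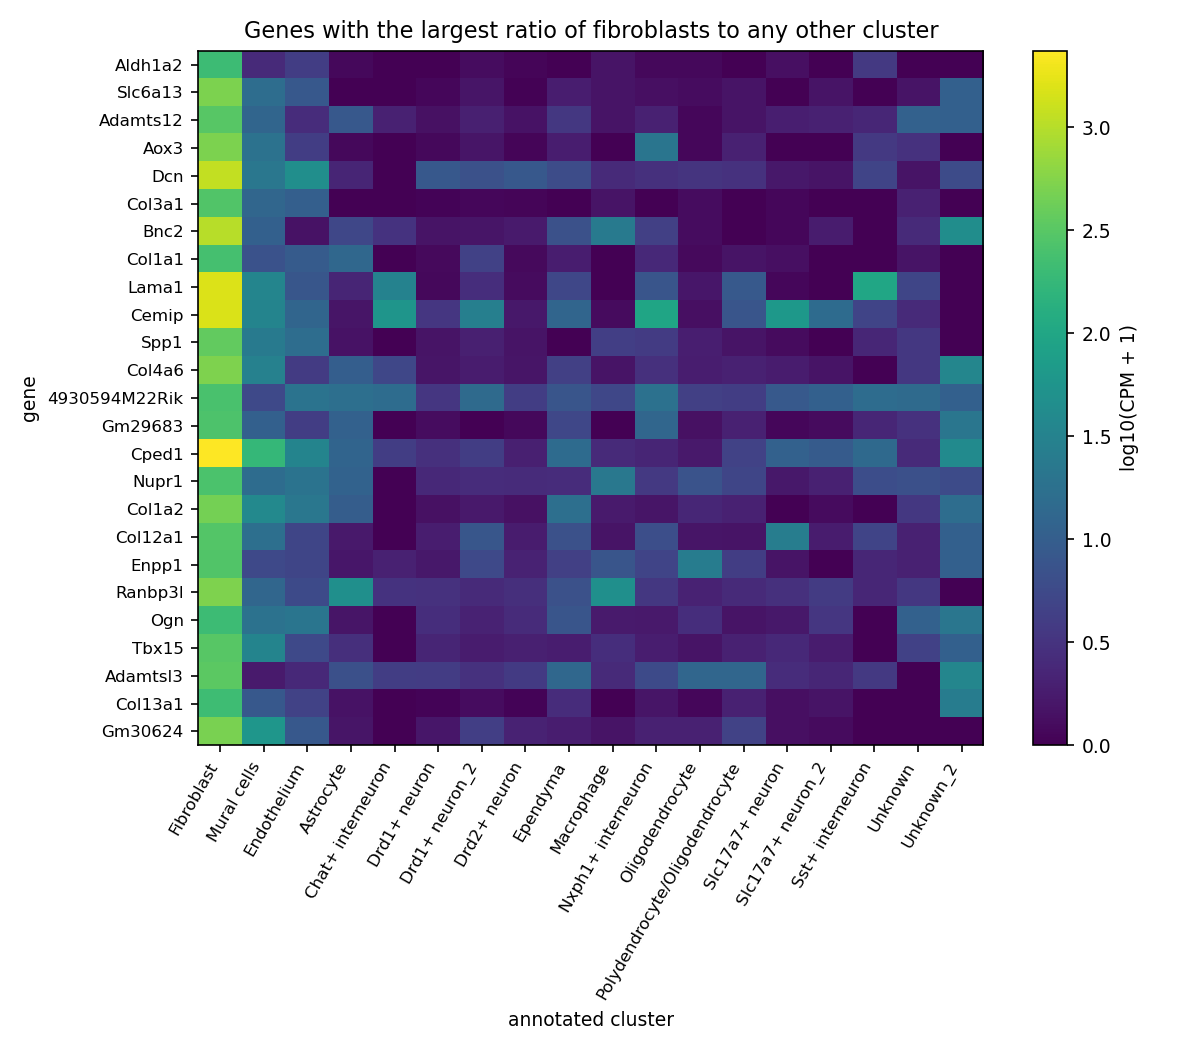
Heat map of the 25 genes (rows, ordered by ratio) in the 18 annotated clusters (columns), coloured by log10(CPM + 1) of each cluster's summed counts. The fibroblast column at the left is the brightest in every row, and Aldh1a2, in the top row, is 201 CPM there and 3.09 CPM in the next cluster.

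The matrix genes were described by lists of structural role. Over all 2962 genes with at least 20 counts in the cluster, 597 (20.2%) had their highest CPM in fibroblasts, and the median ratio to the highest other cluster was 0.677. These shares describe genes that helped to define the cluster. Of 26 collagen genes, 19 had at least 20 counts, 13 of these were highest in fibroblasts and all 19 were above mural cells, with a median ratio of 4.59. The fibrillar chains Col1a1 and Col3a1 stood at 240 and 288 CPM, 19.3 and 23.7 times the next cluster. The chains of type IV collagen, the network of basement membranes, did not go together. Col4a5 and Col4a6 stood at 626 and 524 CPM, 4.23 and 15.2 times the next cluster. Col4a1 (197 CPM) and Col4a2 (150 CPM) were close to endothelium (230 and 192 CPM), whose values lay within the Poisson intervals of the fibroblast levels. Col25a1, a membrane collagen, stood at 721 CPM and was below Sst+ interneurons at 1962.

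Of 10 small leucine-rich proteoglycans, 6 had at least 20 counts and 5 were highest in fibroblasts. Besides Dcn and Lum, osteoglycin (Ogn) stood at 205 CPM (10.4 times the next cluster, 6.85 without the nuclei with Bnc2 described below) and fibromodulin (Fmod) at 98.5 CPM on 25 counts, against 2.28 in mural cells. Biglycan (Bgn) stood at 189 CPM against 105 in mural cells. Aspn was at 0, which allows up to 14.5 CPM by the Poisson interval, while mural cells had 101 CPM. Of 11 laminin and basement-membrane genes, 7 had at least 20 counts and 6 were highest in fibroblasts, with a median ratio of 1.52. Lama1 stood apart from the rest of that list: Lama2 was 1.52 times, Lamc1 1.21 times and the linker nidogen (Nid1) 2.25 times the next cluster. Enzymes and inhibitors of matrix turnover counted 10 of 13 highest in fibroblasts. The collagen-processing enhancer Pcolce stood at 288 CPM (7.14 times), Timp3, an inhibitor of metalloproteinases, at 591 (1.46 times), and lysyl oxidase (Lox) had 4 counts. Of 18 elastic fibre and matricellular genes, 6 had at least 20 counts and 4 were highest in fibroblasts, among them Efemp1 (4.81 times) and Fbln5 (4.22 times). The summed level of that list was nevertheless higher in endothelium, at 2207 CPM against 1993, where Sparc stood at 1326 CPM against 433 in fibroblasts.

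**Figure D2:**
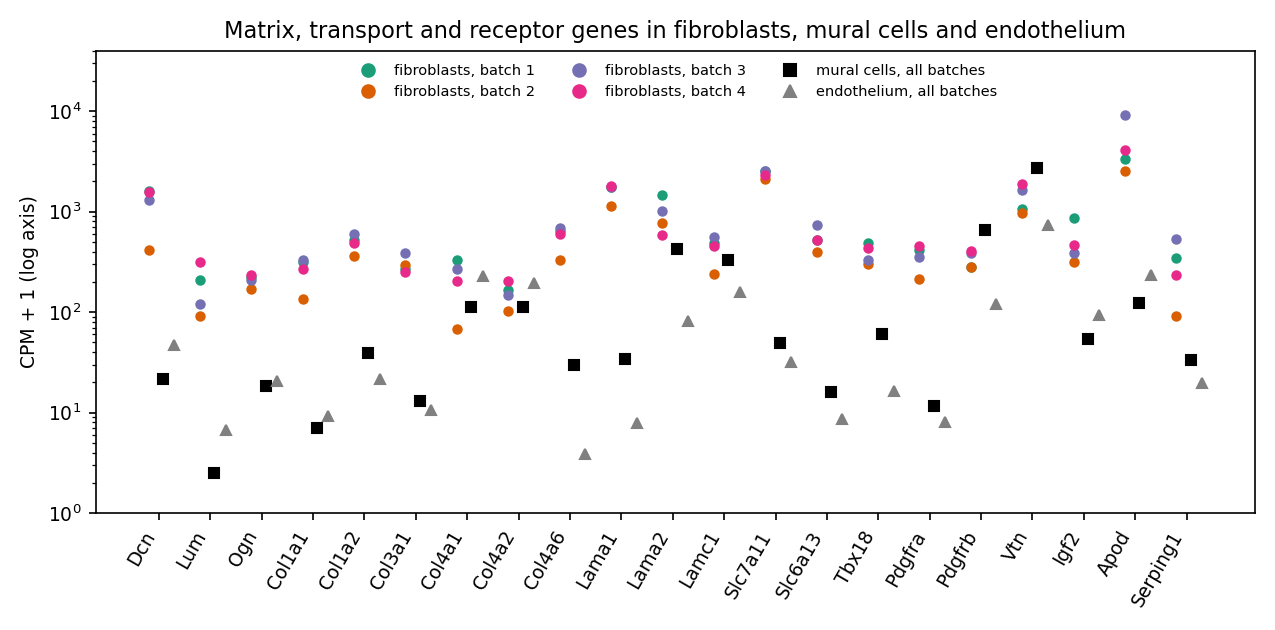
CPM + 1 on a log axis of 21 genes, for fibroblasts in each of the 4 batches (coloured circles), mural cells (black squares) and endothelium (grey triangles), each summed over its nuclei. All 4 fibroblast circles lie above the square and the triangle for Dcn, Col1a2, Lama1 and Slc7a11, while Pdgfrb and Vtn are highest in mural cells.

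Of 15 solute carriers listed for meningeal fibroblasts and their barrier, 13 had at least 20 counts, 11 were highest in fibroblasts, and the median ratio was 4.79. Slc7a11, the light chain of the cystine-glutamate exchanger, gave 594 counts and 2340 CPM, 7.83 times astrocytes. By batch it averaged 2384 ± 211 CPM (SD, n = 4 batches). The organic anion transporters Slc22a6 and Slc22a8 stood at 98.5 and 299 CPM, 18.5 and 1.30 times the next cluster, and the proline and imino acid transporter Slc6a20a at 1024 CPM, 1.89 times mural cells. Of 11 retinoid genes, 10 were detected, 3 had at least 20 counts and 2 of these were highest in fibroblasts. Besides Aldh1a2, Aldh1a1 stood at 587 CPM (497 to 689), 7.58 times astrocytes, and Aldh1a3 was at 0. The degrading enzyme Cyp26b1 had 2 counts. The retinoic acid receptor Rarb, at 295 CPM, was below Drd1+ neurons at 1257, and the summed list stood at 1292 CPM against 1317 in Drd1+ neurons.

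Regulators and signals followed. Of 27 transcription factors of meningeal mesenchyme, 13 had at least 20 counts and 9 were highest in fibroblasts. Tbx18 stood at 390 CPM (6.58 times mural cells), Tbx15 at 311 (9.76 times, but 4.60 without the nuclei with Bnc2 described below), Eya2 at 331 (5.59 times), Zic1 at 303 (2.76 times) and Foxd1 at 98.5 (4.05 times). Ebf1, at 291 CPM, was below mural cells at 1225, and Tcf21 and Meox2 were at 0. Of 23 secreted growth factors and binding proteins, 14 had at least 20 counts and 9 were highest in fibroblasts, with a median ratio of 1.59. Igf2 stood at 508 CPM (2.94 times the next cluster), Bmp7 at 138 (9.28 times), Igfbp2 at 548 (1.82 times) and pleiotrophin (Ptn) at 2738 (1.66 times astrocytes). The chemokine Cxcl12 (260 CPM) and Igfbp7 (181 CPM) were below endothelium, at 1665 and 810 CPM. Prostaglandin D2 synthase (Ptgds) gave 1232 counts and 4854 CPM against 2103 in oligodendrocytes, and was found in 47.7% of the nuclei (26.4% of mural nuclei). Apolipoprotein D (Apod), a lipid carrier outside the lists, gave 1016 counts and 4003 CPM, 5.0 times oligodendrocytes. Of 14 growth factor receptors, 11 had at least 20 counts and 4 were highest in fibroblasts. The collagen receptor Ddr2 was 4.91 times mural cells, and the platelet-derived growth factor receptor Pdgfra, at 347 CPM, was close to 298 in the precursor cluster of oligodendrocytes, whose proteoglycan Cspg4 gave 2 counts here. Of 8 complement genes and regulators, 2 had at least 20 counts. Only 1 of these, the inhibitor Serping1, was highest in fibroblasts, at 252 CPM (7.72 times), and C3 was at 0.

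The 132 nuclei divided by Bnc2, a zinc-finger transcription factor of mesenchyme. It was at 0 in 103 nuclei and at 1 UMI in 2, while 27 nuclei (20.5%) held 2 to 25 UMIs, with a median of 9. At the edge of this division, 3 nuclei held exactly 2 UMIs and 3 held exactly 3. The division was chosen after the counts were seen, so what follows describes it without a test. Of these 27 nuclei, 24 also made up the smaller group when all nuclei were divided by k-means on 10 principal components of 2950 genes, and that group held no other nucleus. The first component took 4.19% of the variance and the second 1.83%. On the first, the 27 nuclei ran from 5.71 to 22.7 and the other 105 from -12.0 to 6.57, so that 2 of the 105 lay inside the range of the 27. Median depth was 2155 UMIs in the nuclei with Bnc2 and 1562 in the rest.

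**Figure D3:**
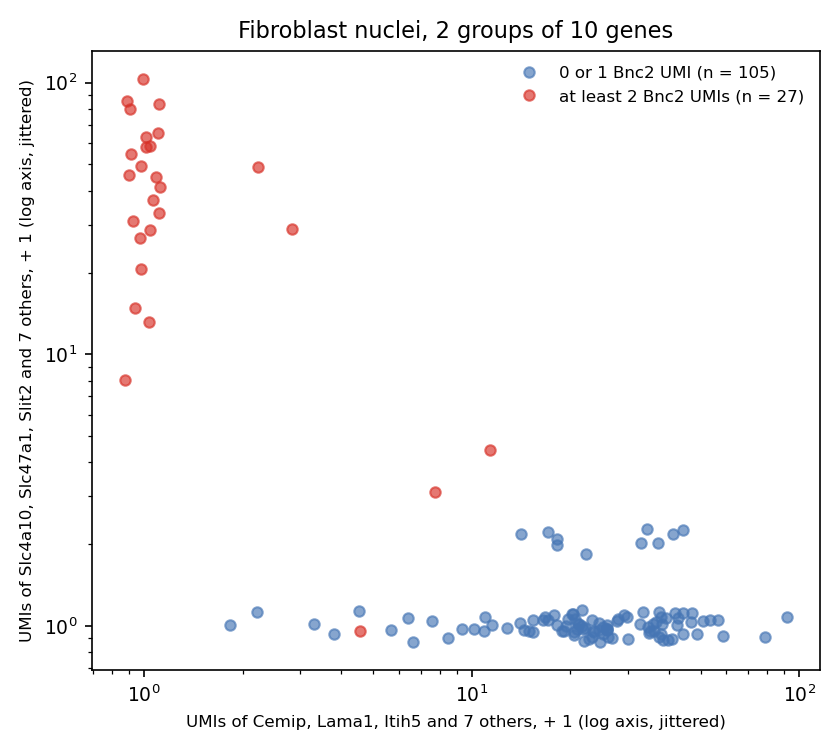
Each point is 1 of the 132 nuclei, placed by its summed UMIs, plus 1 and with slight jitter on log axes, of the first 10 genes higher outside the Bnc2 nuclei (x: Cemip, Itih5, Lama1, Gm30624, Vtn, Pdgfra, Colec12, Slc16a12, Slc7a11, Col18a1) and the first 10 higher in them (y: Slc4a10, Col25a1, Slit2, Slc47a1, Kcnb2, Pcdh7, Adamtsl3, Ccn3, Thsd4, Slc26a7). Blue points (105 nuclei) have at most 1 UMI of the second group, red points (27 nuclei) a median of 43 (0 to 98), and the genes were picked for this difference. The red points with 0, 2 and 3 UMIs of the second group have 4, 7 and 9 of the first.

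The genes below were picked for their difference between the sets. The bicarbonate transporter Slc4a10 gave 311 counts in the 27 nuclei (4064 CPM) and 4 in the 105 (22.6 CPM). The multidrug and toxin extruder Slc47a1 gave 86 counts, in 21 nuclei, and none elsewhere, which is at least 66.4-fold higher when 3 counts are taken as the floor over the other nuclei. The guidance cue Slit2 gave 101 counts against 0 (at least 78.0-fold), the anion exchanger Slc26a7 42 against 0 (at least 32.4-fold) and the matricellular protein Ccn3 49 against 0 (at least 37.8-fold). The amino acid transporter Slc38a2 gave 302 counts against 31, or 3947 against 175 CPM. Matrix Gla protein (Mgp), an inhibitor of calcification, gave 118 against 10, fibronectin (Fn1) 41 against 2, Col25a1 182 against 1 and Adamtsl3 82 against 1. Igfbp6 gave 22 against 0 and the Wnt potentiator Rspo3 60 against 8. Foxp2 stood at 2196 against 254 CPM and Tbx15 at 693 against 147.

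Other genes had nearly all of their counts in the other 105 nuclei. Cemip gave 381 counts there and 0 in the 27 nuclei with Bnc2 (at least 54.8-fold higher, with 3 counts as the floor), and Itih5, whose product binds hyaluronan, 344 and 0 (at least 49.5-fold). Lama1 gave 391 against 3 counts, Vtn 329 against 4, Slc7a11 583 against 11, Colec12, a scavenger receptor, 350 against 5, and Pdgfra 88 against 0. Collagens Col18a1 and Col15a1 gave 66 and 38 against 0, and Col4a6 131 against 2. Dcn itself was lower in the Bnc2 nuclei, at 301 CPM (191 to 451) against 1511 (1336 to 1704), and Apod stood at 431 against 5544. The fibrillar collagens differed less: Col1a2 stood at 288 CPM (180 to 435) against 541 (439 to 661), Col1a1 at 157 against 276 and Col3a1 at 196 against 327. Eya1 stood at 301 (191 to 451) against 350 (268 to 448), intervals that overlap. At least 1 of the 4 defining genes was found in 22 of the 27 and in 95 of the 105 nuclei.

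By list, 5 of the 7 laminin and basement-membrane genes with at least 20 counts were over 3 times higher outside the Bnc2 nuclei, with 20 CPM added to both sides, and none the other way, and 8 of 19 collagens were, against 1. Over all 2962 such genes, 260 were higher outside by that margin and 181 higher within. The solute carriers split to both sides, 6 higher within and 4 higher outside, and so did the genes listed for meningeal layers, 3 and 3. Genes listed for arachnoid barrier cells summed to 642 CPM in the whole fibroblast cluster and were higher in oligodendrocytes, at 817 CPM. Within the fibroblast cluster they summed to 2000 CPM in the Bnc2 nuclei and 56.4 in the rest. Most of this was Slc47a1. Of the others, E-cadherin (Cdh1) gave 15 counts against 1, Dpp4 6 against 0, Cldn11 30 against 6, Klf5 12 against 2 and Msx1 4 against 1. Mural markers lay mostly on the other side, at 157 CPM in the Bnc2 nuclei and 2352 in the rest, of which Vtn and Pdgfrb made up most. No cell type name is given to either set, since both belong to 1 deposited cluster.

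The ion channel Trpm3 cut across this division. It was found in 34 nuclei with 858 counts. Of these, 559 were in the Bnc2 nuclei, where a single nucleus held 225. In CPM it stood at 7306 in the Bnc2 nuclei and at 15813 in the cluster named Unknown_2, where transthyretin (Ttr) stood at 35645. Outside the Bnc2 nuclei, 90 had no Trpm3 UMI, 6 had 1 or 2, and 9 had 3 to 69. These 9 nuclei, of 5 strains and 3 batches and with a median of 2017 UMIs (1508 in the other 96), held 291 of the 299 Trpm3 counts outside the Bnc2 nuclei, 373 of 631 counts of Ptgds, 60 of 95 of Ranbp3l and 64 of 75 of Ralyl. Slc7a11 stood at 3504 CPM in them against 3263 in the remaining 96. Other genes of the larger set were lower: Lama1 stood at 712 against 2377 CPM, Cemip at 821 against 2301, Dcn at 821 against 1591 and Apod at 2245 against 5923, and Serping1 and Ror1 had 0 counts against 60 and 188. Within the 27 Bnc2 nuclei, the 10 with at least 3 Trpm3 UMIs held 571 of 601 Ptgds counts and 10 of 86 Slc47a1 counts, whereas the other 17 held 76 Slc47a1 counts and 30 of Ptgds. These groups were chosen after the counts were seen and have no test.

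Single nuclei set some values. The deepest nucleus, of the NOD/ShiLtJ mouse of batch 2, held 12355 UMIs, 2 times the next at 6177, and it lay among the Bnc2 nuclei with 14 Bnc2 and 4 Slc47a1 UMIs but no Dcn UMI. It also held 30 of the cluster's 61 Syt1 counts and 84 of its 130 Fgf14 counts, both neuronal genes. Of the 49 counts of the chemokine Ccl2, 93.9% came from 1 nucleus. No single nucleus held over 15% of the counts of any of the 25 leading genes except Adamtsl3, at 20.5%.

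Whether strains differ in how many fibroblasts they gave was asked per mouse. Fibroblasts were found in 29 of the 32 mice. The 3 mice without any, 129S1/SvImJ of batch 2, A/J of batch 1 and PWK/PhJ of batch 2, had 1373 to 1761 annotated nuclei, which allows shares of up to 0.219%, 0.170% and 0.209%. Over all mice the median was 3.5 nuclei, and the largest numbers were 16 in A/J of batch 2 and 13 in NOD/ShiLtJ of batch 2. That A/J mouse also gave the most annotated nuclei (4416), so its share was 0.362%, against 0.748% in the NOD/ShiLtJ mouse. The mean share was highest in NOD/ShiLtJ at 0.370% ± 0.270 (SD, n = 4 mice) and NZO/HlLtJ at 0.368% ± 0.119 (n = 4), and lowest in 129S1/SvImJ at 0.123% ± 0.111 (n = 4) and WSB/EiJ at 0.149% ± 0.041 (n = 4). NZO/HlLtJ was even, with 5 to 9 nuclei in each mouse, and WSB/EiJ with 2 or 3. The ranges of these strains overlapped, except that every NZO/HlLtJ mouse (0.235% to 0.521%) lay above every WSB/EiJ mouse (0.098% to 0.193%), a pair picked after its values were seen. The difference between strains was within the spread of mice: a permutation test of the F statistic within batches (100000 resamples) gave p = 0.410, and p = 0.567 adjusted by Benjamini-Hochberg over the 18 clusters. No alternative, among them fibroblasts as a share of vascular nuclei, brought the adjusted p below 0.468.

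**Figure D4:**
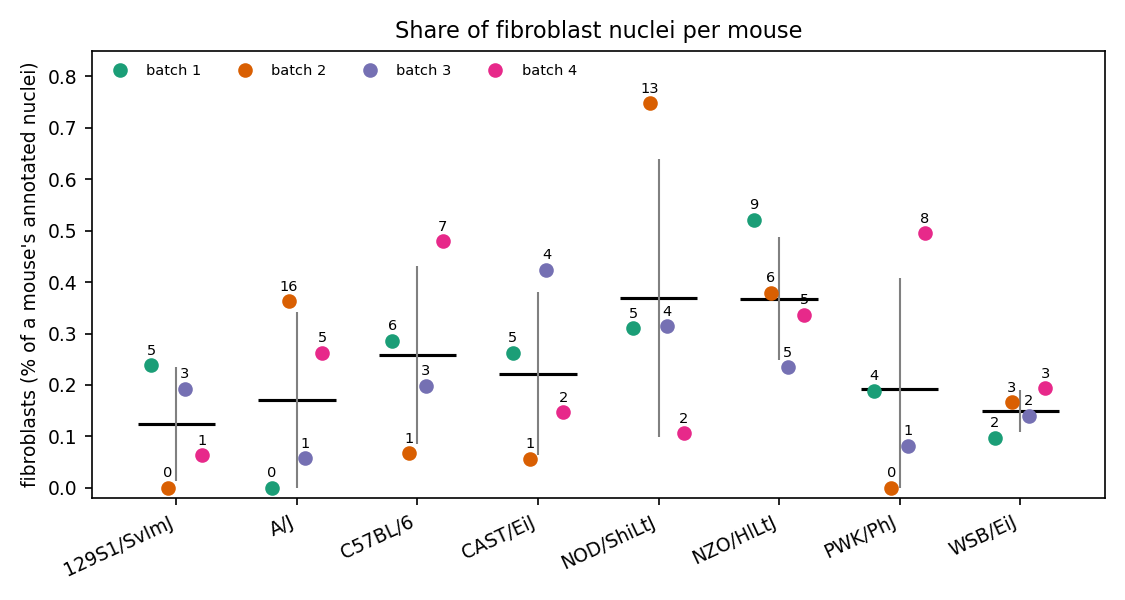
Fibroblasts as a percentage of the annotated nuclei of each mouse, by strain. Points are mice coloured by batch with their number of fibroblast nuclei above, black bars are strain means and grey lines 1 SD (drawn from 0 up). NOD/ShiLtJ spans 0.106% to 0.748%, the highest mouse, and NZO/HlLtJ 0.235% to 0.521%.

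Depth did not pass its test either. Over the 20 mice with at least 3 fibroblast nuclei, the mean over mice of the median UMIs per nucleus ran from 1280 in 129S1/SvImJ to 2062 in WSB/EiJ, each with 2 such mice (permutation test of F within batches, p = 0.245). The share of fibroblasts was also set against the shares of 5 other clusters over the 32 mice, to see whether they came with vessel cells or with cortical tissue at the edge of the dissection. Pearson's r was 0.0453 with endothelium, 0.0472 with mural cells, -0.120 with macrophages, and -0.0355 and 0.0514 with the clusters of Slc17a7+ neurons (permutation tests, adjusted p = 0.848 for each of the 5). Spearman's rho ran from -0.0935 to 0.168 (adjusted p = 0.771 for each). Without the 2 mice farthest from the median share, r ran from -0.0679 to 0.170. Within single batches of 8 mice r ran from -0.616 to 0.541, and none passed after adjustment.

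The Bnc2 nuclei were spread unevenly over strains, which is given without a test. They made up 11 of 24 fibroblast nuclei in NOD/ShiLtJ (45.8%), 5 of 13 in PWK/PhJ (38.5%) and 5 of 10 in WSB/EiJ. They were 3 of 25 in NZO/HlLtJ, 2 of 22 in A/J and 1 of 17 in C57BL/6, and 0 of 9 in 129S1/SvImJ and 0 of 12 in CAST/EiJ. Nuclei of 1 mouse share their source: 8 of the 11 in NOD/ShiLtJ came from the mouse of batch 2 and 4 of the 5 in PWK/PhJ from that of batch 4, while each of the 4 WSB/EiJ mice gave 1 or 2. By batch they were 4 of 36, 12 of 40, 3 of 23 and 8 of 33. In all, 14 mice held at least 1.

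**Figure D5:**
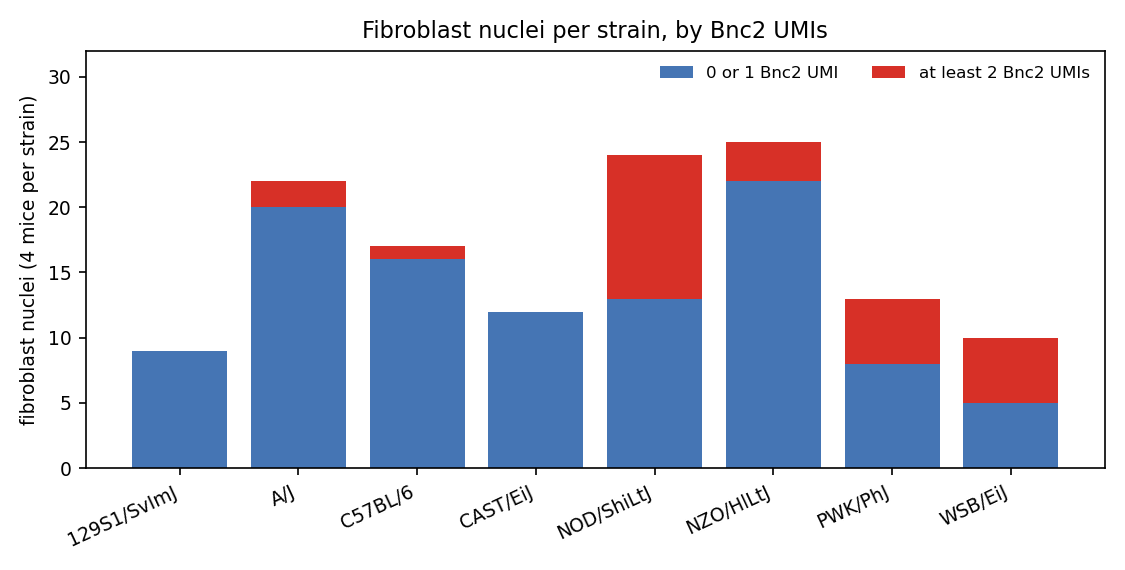
Number of fibroblast nuclei per strain, summed over its 4 mice, divided into nuclei with 0 or 1 Bnc2 UMI (blue) and with at least 2 (red). NOD/ShiLtJ has 11 red of 24, WSB/EiJ 5 of 10, and 129S1/SvImJ and CAST/EiJ have none of 9 and 12.

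Which genes differ between strains within fibroblasts could be tested in few mice. Summed counts were fitted for the mice with at least 5 fibroblast nuclei of the strains with at least 2 such mice: 2 each of A/J, C57BL/6 and NOD/ShiLtJ and 4 of NZO/HlLtJ. The fit had a term for batch, and 3 residual degrees of freedom remained. The spread of a gene was therefore estimated in part from the other genes, and very small p-values below rest on this. Its only mouse of batch 3 was of NZO/HlLtJ, so the term for batch fitted that mouse alone. The strain differences thus rest on the other 9 mice. Of 247 genes tested, 11 (4.45%) passed the strain term at an adjusted p below 0.05 (edgeR quasi-likelihood test, Benjamini-Hochberg), and 53 had an unadjusted p below 0.05. By size of F these were Lsamp, Cadm2, Adamtsl3, Apod, Flrt2, Asic2, Nrg1, Macrod2, Col25a1, Fbxl7 and Vtn. Nrg1 had 78 counts in NOD/ShiLtJ of batch 2 and 12 in NZO/HlLtJ of batch 2, in 1 nucleus each, and 0 to 2 elsewhere. Of Macrod2, 40 of 48 counts in NOD/ShiLtJ of batch 2 and all 17 in NZO/HlLtJ of batch 3 were in 1 nucleus each. Without the term for batch, edgeR called 0, and 13 had an unadjusted p below 0.05. Without batch 3 it called 10 of 237, 9 of them among the 11, also with 3 residual degrees of freedom. DESeq2 called 3, edgeR with mice of at least 3 nuclei from all 8 strains 0 of 283 (26 at an unadjusted p below 0.05), and with mice of at least 1 nucleus 2 of 173 (1.16%). Without batch 2 it called 1 of 298, which was none of the 11, without batch 1 it called 43 of 404 and without batch 4 it called 39 of 480, each with 1 residual degree of freedom. The count thus depends on the choice of mice and model.

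Against the mean of the other 3 strains, 8 genes (3.24%) were called in A/J, 2 (0.81%) in C57BL/6, 1 (0.405%) in NOD/ShiLtJ and 2 (0.81%) in NZO/HlLtJ. The contrasts share mice. In NZO/HlLtJ the second gene, besides Asic2, was the metalloproteinase Adam12 (2.35 on the log2 scale, adjusted p = 0.0439, edgeR), with 8, 18, 1 and 20 counts in its mice and 0 to 8 in the others. Of these counts, 7 of the 8, 11 of the 18 and 17 of the 20 were in 1 nucleus each, and Adam12 did not pass the strain term (adjusted p = 0.0781, edgeR). Apod was 1.82 higher on the log2 scale in A/J (adjusted p = 0.000133, edgeR). The 2 A/J mice had 5142 and 6863 CPM, those of C57BL/6 2878 and 1508, those of NOD/ShiLtJ 2005 and 637, and those of NZO/HlLtJ 2983, 1450, 18445 and 5186. The levels overlapped, also without the highest mouse, NZO/HlLtJ of batch 3, which had 45 of its 111 Apod counts in 1 nucleus. The term for batch fitted that mouse alone. With all 8 strains the call was lost: the difference was 1.62 on the log2 scale with mice of at least 3 nuclei (adjusted p = 0.306, edgeR) and 0.84 with mice of at least 1 (adjusted p = 0.928, edgeR). Over all nuclei of a strain, CAST/EiJ stood at 6543 CPM of Apod and A/J at 5907. Flrt2, an adhesion protein that binds Unc5 receptors, was 1.59 higher in A/J on the log2 scale (adjusted p = 0.0469, edgeR), with 2794 and 1906 CPM there. The C57BL/6 mice were as high, at 3058 and 1774 CPM, while those of NOD/ShiLtJ had 481 and 492 and those of NZO/HlLtJ 305 to 1828. With all 8 strains it did not pass, at 1.29 on the log2 scale with mice of at least 3 nuclei (adjusted p = 0.788, edgeR) and 1.11 with mice of at least 1 (adjusted p = 0.928, edgeR).

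Another 6 genes were called lower in A/J: Lsamp, Cadm2, Col25a1, Tenm2, Kcnq5 and Magi2, of which Lsamp, Cadm2, Tenm2 and Kcnq5 encode neuronal adhesion molecules and a potassium channel. The 2 genes called higher in C57BL/6 were Lsamp and Cadm2 (3.59 and 4.88 on the log2 scale, adjusted p = 0.0187 and 0.0398, edgeR). The C57BL/6 mice had 1 and 20 Lsamp counts (90 and 1774 CPM), 15 of the 20 in 1 nucleus, and their mean of 932 CPM was below the 995 of NOD/ShiLtJ. Their Cadm2 counts were 2 and 2, and the group means of Cadm2 were 179 CPM in C57BL/6, 767 in NOD/ShiLtJ and 1219 in NZO/HlLtJ. Without the term for batch, the fitted Cadm2 difference was -0.36. Cadm2 had 0 counts in both A/J mice (adjusted p = 1.13e-07, edgeR), and elsewhere 53 in NOD/ShiLtJ of batch 2, 31 and 16 in NZO/HlLtJ of batches 2 and 3, and 0 to 2 in the other 5 mice. These counts came from few nuclei, since 45 of the 53, 30 of the 31 and 14 of the 16 were in 1 nucleus each. Lsamp likewise had 1 and 0 counts in A/J (adjusted p = 1.97e-07, edgeR) and 66 in NOD/ShiLtJ of batch 2, 63 of them in the nucleus of 12355 UMIs. The cluster held 3 nuclei over 3 times the median depth, of which that of 6177 UMIs, of CAST/EiJ, was outside this fit. When such nuclei were left out, edgeR called 6 genes of 233 in place of 11, and 5 of these 6 were among the 11. Of the 8 genes called in A/J, only Cadm2 and Apod then passed (adjusted p = 0.00211 and 0.00427, edgeR). Lsamp, Flrt2, Col25a1 and Magi2 did not (adjusted p = 0.111 to 0.152, edgeR), and Tenm2 and Kcnq5 were not called either. On the log2 scale Col25a1 moved from -3.10 to -2.99, Magi2 from -3.19 to -3.12, Flrt2 from 1.59 to 1.40 and Lsamp from -5.94 to -4.54. With all 8 strains no gene was called in A/J, with mice of at least 3 nuclei or of at least 1, so neither Cadm2 nor Lsamp was. Asic2, an acid-sensing ion channel, was called higher in NZO/HlLtJ (adjusted p = 0.000471, edgeR), with 7, 20, 4 and 12 counts in its 4 mice and 0 to 2 in the others, so that the groups do not overlap. The mouse with 4 counts was that of batch 3, which the term for batch fitted alone. In the mouse with 20 counts, 17 were in 1 nucleus. Among the strains outside this fit, PWK/PhJ stood higher, with 58 Asic2 counts in 8 of 13 nuclei (2179 CPM, against 883 in NZO/HlLtJ), and WSB/EiJ had 6 counts (278 CPM). With mice of at least 1 nucleus from all 8 strains, both PWK/PhJ (adjusted p = 0.00363, edgeR) and NZO/HlLtJ (4.12 on the log2 scale, adjusted p = 0.0293, edgeR) were called higher. With mice of at least 3 nuclei, NZO/HlLtJ did not pass at nearly the same difference (4.02, adjusted p = 0.134, edgeR), nor did the strain term for Asic2 (adjusted p = 0.387, edgeR), while PWK/PhJ did (adjusted p = 0.0186, edgeR). Adamtsl3, called higher in NOD/ShiLtJ (adjusted p = 0.00173, edgeR), had 6 and 43 counts there, 5 and 10 in A/J and 0 in C57BL/6 and NZO/HlLtJ. With mice of at least 3 nuclei from all 8 strains it did not pass (5.08 on the log2 scale, adjusted p = 0.339, edgeR). It is one of the genes of the Bnc2 nuclei, of which these NOD/ShiLtJ mice held 2 and 8 and these A/J mice 1 each. C57BL/6 of batch 1 and NZO/HlLtJ of batches 2 and 4 held 1, 2 and 1 Bnc2 nuclei and had no Adamtsl3 count. The Bnc2 nuclei also held 182 of the 183 counts of Col25a1, called lower in A/J. The share of Bnc2 nuclei in a mouse and its level of Adamtsl3 or Col25a1 cannot be told apart in sums. The same holds in the other direction for Apod and Vtn, whose counts lie mostly outside the Bnc2 nuclei (983 of 1016 and 329 of 333). Asic2 counts also lay mostly outside them (108 of 109). C57BL/6 of batch 4 (7 nuclei), 129S1/SvImJ (9) and CAST/EiJ (12) had neither a Bnc2 nucleus nor an Asic2 count. NZO/HlLtJ of batches 1 and 3, also without Bnc2 nuclei, had 7 and 4 Asic2 counts. Whether the share of Bnc2 nuclei bears on these counts was not tested.

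With mice of at least 3 nuclei from all 8 strains, 20 of 283 genes (7.07%) were called higher in CAST/EiJ, 1 in PWK/PhJ and none in the other strains (edgeR quasi-likelihood test). In CAST/EiJ none of 173 was called with mice of at least 1 nucleus. With mice of at least 3 nuclei and no Bnc2 nuclei, 1 of 161 was called there. The 20 include Lsamp, Nrxn3, Cntnap2, Tenm2, Csmd3 and Rbfox1, genes known from neurons. Their summed level was 18829 and 43888 CPM in the 2 CAST/EiJ mice. It was 27205 in NOD/ShiLtJ of batch 2, 19810 in NZO/HlLtJ of batch 2 and 2315 to 7917 in the other 16 mice, so the groups overlap. In the CAST/EiJ mouse of batch 1, 50 of 144 counts came from the nucleus with most of them (1375 UMIs), so that no single nucleus dominated there. In the CAST/EiJ mouse of batch 3, 416 of 428 counts came from the nucleus of 6177 UMIs, the second deepest, which also held 5 counts of the dopamine receptor Drd1. In NOD/ShiLtJ of batch 2, 846 of 940 came from the nucleus of 12355 UMIs, and in NZO/HlLtJ of batch 2, 249 of 287 from 1 nucleus.

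Of 18 genes that vary between strains in Drd1+ neurons of the same mice, 3 had at least 20 counts in fibroblasts, 10 had 1 to 12 and 5 had none. They were chosen with those results known and are described without a test. Cwc22, a splicing factor, gave 44 counts, of which 33 were in WSB/EiJ. A UMI was found in 9 of the 10 WSB/EiJ nuclei and in 10 of the 122 nuclei of the other strains. The 4 WSB/EiJ mice stood at 1215, 2013, 332 and 1505 CPM, on 4, 20, 1 and 8 counts. The 25 other mice with fibroblasts ran from 0 to 131 CPM with a median of 0, and 18 of them were at 0. All 4 listed values in WSB/EiJ lay above all others, but depth does not support this mouse by mouse. The WSB/EiJ mouse at 332 CPM rests on 1 count, and in 12 of the 18 mice at 0, the level that 3 counts would give (179 to 2988 CPM over the 18) is above 332. Catspere2 gave 23 counts: 10 in NOD/ShiLtJ, 7 in NZO/HlLtJ, 3 in PWK/PhJ, 2 in WSB/EiJ, 1 in A/J and 0 in 129S1/SvImJ, C57BL/6 and CAST/EiJ. The third, Col5a2, gave 44 counts spread over all 8 strains, with 2 to 9 in each. B530045E10Rik gave 7 counts, and all 7 were in CAST/EiJ. Dnah6, Insyn2b, Sult3a1, Scn10a and Gm13727 were at 0.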

How the data were processed

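Nuclear RNA of 4 batches was analysed. Per the submitters' processing notes, bcl2fastq 2.20.0.422 and Cell Ranger ARC 2.0.0 were used with mm10 (GRCm38). The deposited matrices hold raw counts of UMIs for 32285 genes, and the authors' table gives each barcode a batch, a strain and a cluster. The barcodes of every matrix matched that table. That table also holds DoubletFinder calls, droplet types from RNA and open chromatin, a quality filter and a removal step: all 55672 annotated nuclei are single and kept by each, out of 89339 barcodes. No further doublet caller was run, and how free RNA was treated is not given in the sources used here. A batch holds 1 mouse of each strain, per the labels, so it served as the replicate block.

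Counts were summed per cluster, batch, strain or mouse. Strain effects on summed counts were fitted with edgeR 4.0.16 (TMM, filterByExpr, quasi-likelihood, robust), and DESeq2 1.42.0 was an alternative. The edgeR script was run on simulated counts drawn independently for each mouse. Those had no single nuclei holding most counts of a gene, so that run does not give the error rate in these data. Permutations used numpy 2.4.6 and k-means scikit-learn 1.9.0. Named genes were the 25 with the largest ratio to any other cluster, list members with at least 20 counts or named for absence, called genes and strain-variable genes; others (Apod, Itih5, Ccl2, Trpm3 and the genes of the Bnc2 and Trpm3 groups) were chosen after their values were seen. Members and lists were chosen with earlier results of these data known. The p-values concern these mice only. Those of edgeR do not rest on the spread of a gene between mice alone, since its estimate was moderated with that of the other genes.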

Additional observations from a re-analysis of the deposited data

Results flagged for a closer look

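In 5 of 53 groups of 4 values examined, the highest or lowest value stood far from the other 3 by Dixon's test, which flags about 1 in 20 groups by chance. Col13a1 stood at 313 CPM in fibroblasts of batch 4, against 163 to 180 CPM in the others. Lama1 stood at 1136 CPM in batch 2, the batch with the most Bnc2 nuclei (12 of 40), against 1750 to 1801 CPM in the others. Among the 4 NZO/HlLtJ mice, that of batch 2 stood at 1588 CPM for Col25a1, against 0 to 76.3, at 1381 CPM for Kcnq5, against 0 to 66.3, and at 1035 CPM for Tenm2, against 0 to 166. In that mouse 1 nucleus held all 23 Col25a1 counts, 19 of 20 Kcnq5 counts and 14 of 15 Tenm2 counts.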

How the results depend on the processing

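No strain difference in the share of fibroblasts or in depth was called under any alternative. Adjusted p for the share was 0.641 without the replicate block and 0.483 to 0.695 with each batch left out; p for depth was 0.393 without the block and 0.0822 to 0.543 with each batch left out. The counts of genes called by strain moved with nearly every choice. The strain term called 11 genes with the batch as replicate block and 0 without it; the strain contrasts called 13 and 0. With mice of at least 1 nucleus the term called 2 and the contrasts 5; with at least 3 nuclei, 0 and 21 (20 of them in CAST/EiJ); with DESeq2, 3 and 4; with no filter on low counts, 5 and 6. Leaving out each batch in turn gave 1 to 43 for the term and 2 to 32 for the contrasts; there a strain left with 1 mouse was assumed to vary like the others. Among alternatives chosen after seeing the data, mice of at least 3 nuclei without the Bnc2 nuclei gave 1 and 3. Leaving out nuclei over 3 times the median depth gave 6 and 7. Cadm2 in C57BL/6 turned to -0.36 on the log2 scale without the block. The cause of these moves was not tested. A minimum of 10 nuclei per mouse left no strain with 2 mice and was not run.

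All 25 leading genes were over 3 times the next cluster with each batch left out. Without the Bnc2 nuclei, Bnc2 fell to 0.254 and Adamtsl3 to 0.163 times the next cluster, as those nuclei hold their counts; Tbx15 fell to 4.60 and Ogn to 6.85. Correlations of shares changed sign for Slc17a7+ neuron (0.0264 in percent, 0.3 within batch 2, 0.0589 within batch 3), Slc17a7+ neuron_2 (-0.00345 without the 2 farthest mice, -0.464 within batch 1), mural cells (-0.616 within batch 1), endothelium (-0.0288 within batch 2) and macrophages (0.142 within batch 4), none called. Only 13 of 32 mice held at least 5 nuclei, and 10 entered the strain fit of the report, 1 of them fitted alone by the term for batch.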
